A study of Triticum aestivum with 9 samples.

Results

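The Waxy genes of bread wheat, Wx-A1 (TraesCS7A02G070100, chromosome 7A), Wx-B1 (TraesCS4A02G418200, chromosome 4A) and Wx-D1 (TraesCS7D02G064300, chromosome 7D), were followed in filling grains after 1 h at 20, 30 or 40 °C. They were selected by gene ID, so that every transcript whose ID without its final number was one of these 3 IDs was taken. This gave 3 of the 107891 genes and 3 of the 133744 transcripts in the tables, 1 transcript for each gene. The deposited tables list IDs without names, and the names Wx-A1, Wx-B1 and Wx-D1 were attached to the IDs when the genes were chosen.

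The Waxy genes encode granule-bound starch synthase I, the enzyme that lengthens amylose chains from ADP-glucose inside the starch granule of the endosperm. Grains that lack the enzyme hold starch with almost no amylose and are called waxy, which gave the genes their name. Bread wheat is a hexaploid with A, B and D subgenomes, each of which contributed a copy. The B-subgenome copy lies on chromosome 4A because of an ancient translocation between chromosomes, and lines without a working Wx-B1 have been used to obtain flour of lower amylose content.

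The plants were Triticum aestivum cv. Chinese Spring, the cultivar of the wheat reference genome. They were grown in a greenhouse, moved 12 days after flowering to chambers at 20 °C and kept there for 3 days. They were then split into a group left at 20 °C, the control, and groups moved to 30 °C (mild heat) or 40 °C (severe heat) for 1 h in light. Grains from the main stem of 3 independent plants per temperature gave 9 mRNA libraries with 1 genotype in common, and the labels name no batch.

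The total expected count, RSEM's estimate of the fragments from all transcripts, ranged from 15778561 to 19497182 per library with a median of 16649548. The library of 40 °C replicate 3 stood apart. Its TMM factor, the scaling that sets the bulk of transcripts level between libraries, was 0.832, against 0.981 to 1.07 in the other 8. Its 100 transcripts with the most expected counts held 38.6% of its counts. That share was 30.2% and 30.3% in the other 40 °C plants, 31.0% to 35.3% at 30 °C and 37.0% to 41.6% at 20 °C. The library had 38710 transcripts with FPKM above 1, against 41286 to 43486 in the other 8. Log2 fold changes at 40 °C and the tests of all 3 temperatures at once are given with and without this library below. The other tests and differences at 40 °C are given both ways only in part.

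The 3 Waxy copies were among the abundant transcripts of the grain in every plant. Ranked by FPKM (fragments scaled to transcript length and library depth) among all 133744 transcripts, Wx-A1 stood between places 177 and 362, Wx-B1 between 146 and 220 and Wx-D1 between 166 and 297. Wx-A1 received 9317 to 15009 expected counts per library, Wx-B1 19127 to 30473 and Wx-D1 11638 to 18928. At these counts the counting error of a copy was at most 1.04%, so that the spread between plants, and not depth, set the precision.

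Wx-A1 had 485, 427 and 454 FPKM in the 3 plants at 20 °C. It had 360, 334 and 360 FPKM at 30 °C, and 309, 345 and 386 FPKM at 40 °C. All plants at 30 and 40 °C were below all plants at 20 °C in FPKM, and the plants at 30 and 40 °C overlapped. The means were 456 ± 29.3, 351 ± 15.2 and 347 ± 38.4 FPKM in the order of the temperatures (SD, n = 3 each).

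Wx-B1 had 799, 698 and 742 FPKM at 20 °C. It had 650.04, 544 and 564 FPKM at 30 °C, and 544, 658 and 826 FPKM at 40 °C. The plants at 30 °C were again all below those at 20 °C, but at 40 °C the copy spanned the ranges of both other temperatures. The means were 746 ± 50.6, 586 ± 56.4 and 676 ± 142 FPKM (SD, n = 3 each).

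Wx-D1 had 556, 487 and 501 FPKM at 20 °C. It had 419, 345 and 371 FPKM at 30 °C, and 377, 422 and 553 FPKM at 40 °C. As with Wx-B1, the plants at 30 °C lay below those at 20 °C without overlap, and the plants at 40 °C overlapped with both. The means were 515 ± 36.5, 378 ± 37.5 and 451 ± 91.4 FPKM (SD, n = 3 each).

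**Figure D1:**
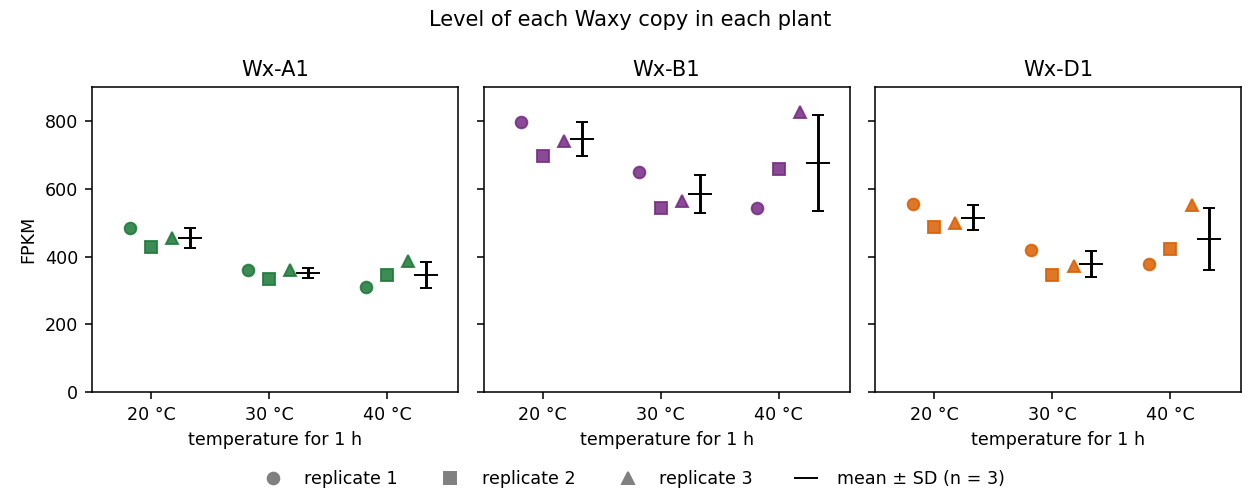
FPKM of Wx-A1, Wx-B1 and Wx-D1 (vertical axis, from 0) at 20, 30 and 40 °C (horizontal axis). Each symbol is 1 plant and the bars are the mean ± SD of 3 plants. All plants at 30 °C lie below all plants at 20 °C for each copy, and the spread at 40 °C is wide for Wx-B1 (544 to 826 FPKM) and Wx-D1 (377 to 553 FPKM).

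On the TPM scale, in which every library sums to the same total, the picture was similar. Wx-A1 averaged 422 ± 28.7, 333 ± 18.2 and 324 ± 25.9 TPM at 20, 30 and 40 °C. Wx-B1 averaged 691 ± 49.3, 555 ± 51.2 and 631 ± 113 TPM, and Wx-D1 averaged 477 ± 34.6, 358 ± 35.2 and 421 ± 72.8 TPM (SD, n = 3 each). The spread between plants, as the coefficient of variation of FPKM, was 6.42% to 7.10% for the copies at 20 °C, 4.33% to 9.92% at 30 °C and 11.1% to 21.0% at 40 °C.

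The copies kept the same order of level in every plant. FPKM takes transcript length into account (2053 bases for Wx-A1, 2363 for Wx-B1 and 2205 for Wx-D1), so the copies can be compared within a library. Wx-B1 was the highest, Wx-D1 came next and Wx-A1 was the lowest in 9 of 9 plants. The ratio of Wx-B1 to Wx-A1 in FPKM was 1.57 to 2.14 over the plants, that of Wx-B1 to Wx-D1 was 1.43 to 1.58, and that of Wx-D1 to Wx-A1 was 1.03 to 1.43. Each of the 3 pairs gave p = 0.00391 in an exact two-sided sign-flip permutation test over the 9 plants, before and after Benjamini-Hochberg adjustment over the 3 pairs, the smallest value that 9 plants allow. The mean log2 ratio was 0.80 ± 0.14 for Wx-B1 over Wx-A1, 0.58 ± 0.05 for Wx-B1 over Wx-D1 and 0.22 ± 0.14 for Wx-D1 over Wx-A1 (SD, n = 9). Between different plants the separation was smaller. The FPKM ranges of Wx-D1 and Wx-A1 overlapped at 30 and 40 °C and those of Wx-B1 and Wx-D1 overlapped at 40 °C.

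The division of fragments among the copies bears on these levels. RSEM splits a fragment that fits several transcripts between them, which leaves expected counts that are not whole numbers. The expected count of each copy was not whole in any of the 9 plants, nor was the sum of any pair of copies, but the sum of all 3 was whole in 9 of 9 plants within 0.015. Fragments were thus shared among the 3 copies, and their summed expected count, on which the edgeR test of the sum was run, does not depend on how they were divided. The sum of FPKM does to a small extent, because the copies differ in length. The part of that division in the ratios and shares of the copies was not tested.

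The summed Waxy level is therefore given first for each comparison. It was 1841, 1612 and 1697 FPKM in the plants at 20 °C, 1429, 1222 and 1295 FPKM at 30 °C and 1230.01, 1425 and 1765 FPKM at 40 °C. All plants at 30 °C were below all plants at 20 °C, whereas 40 °C replicate 3 lay within the range of the 20 °C plants. The 3 copies together made up 0.350% of all expected counts at 20 °C, 0.269% at 30 °C and 0.302% at 40 °C (means of 3 plants each). In bulk grain, fewer cells of a type and less of the RNA per cell cannot be told apart.

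The comparison of 30 with 20 °C asks how the Waxy transcripts stood after mild heat. The sum averaged 1315.5 ± 105 FPKM at 30 °C and 1717 ± 115 FPKM at 20 °C (SD, n = 3 each), a ratio of 0.766. The ratio of means was 0.771 for Wx-A1, 0.785 for Wx-B1 and 0.735 for Wx-D1, so the copies were lower by similar factors. In edgeR's quasi-likelihood test on the expected counts the log2 fold change was -0.40 for Wx-A1 (95% interval -0.70 to -0.10, SE 0.13), -0.37 for Wx-B1 (-0.72 to -0.03, SE 0.15) and -0.47 for Wx-D1 (-0.82 to -0.12, SE 0.15). None of the 3 copies passed the adjusted threshold, with edgeR FDRs of 0.107, 0.175 and 0.107 in the same order. The sum had a log2 fold change of -0.41 (-0.75 to -0.06, SE 0.15) and an edgeR FDR of 0.144.

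Before adjustment all 3 copies were under 0.05 in edgeR's test, as were 24.7% of the 45956 transcripts tested. None of the copies was under an FDR of 0.05 (6.35% of transcripts were), and none was a DET (differentially expressed transcript, FDR under 0.05 and a fold change above 2), against 3.88% of transcripts. In FPKM all 3 copies were lower in every plant at 30 °C than in any plant at 20 °C, which held for 14.3% of transcripts tested. The copies share fragments and plants, so these counts over the 3 copies are not 3 separate observations.

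The call at 30 °C depended on the tool. With DESeq2 the adjusted p was 0.0106 for Wx-A1, 0.0637 for Wx-B1, 0.0146 for Wx-D1 and 0.0270 for the sum, and 10.6% of the 45899 transcripts with an adjusted p were under 0.05. No tool gave a fold change above 2 for a copy. The lower bound of the edgeR interval lay at a fold of 0.568 for Wx-D1, 0.607 for Wx-B1, 0.615 for Wx-A1 and 0.593 for the sum.

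Abundant transcripts were also counted singly. The 932 transcripts with a mean FPKM of at least 100 over all 9 plants had a median log2 fold change of 30 over 20 °C of 0.25 (quartiles -0.22 and 0.72), and 35.0% were below 0. The limit was chosen after the values were seen and lay below the level of every Waxy copy. The mean includes the heated plants, so transcripts higher under heat could enter the set through them. Its median is therefore not a neutral background for the Waxy copies. The 100 transcripts with the most expected counts in each library held a smaller summed share at 30 °C. That share was 31.0% to 35.3% in the plants at 30 °C, against 37.0% to 41.6% at 20 °C. The ranks given above for the Waxy copies are by FPKM, so they do not show whether a copy was among these 100. The part of this smaller share in the Waxy difference was not tested. The log2 fold changes of Wx-A1, Wx-B1 and Wx-D1 lay at percentiles 21.5, 23.0 and 18.4 of all transcripts tested, whose median was 0.00 after TMM scaling.

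The comparison of 40 with 20 °C asks the same of severe heat. The sum averaged 1473 ± 270.5 FPKM at 40 °C and 1717 ± 115 FPKM at 20 °C (SD, n = 3 each), and the edgeR log2 fold change was -0.05 (95% interval -0.60 to 0.51, FDR 0.903). The interval covers folds of 0.658 to 1.42, so neither a moderate fall nor a moderate rise can be told from no difference. Wx-A1 had a log2 fold change of -0.24 (-0.67 to 0.20, FDR 0.413), Wx-B1 of 0.02 (-0.54 to 0.59, FDR 0.953) and Wx-D1 of -0.02 (-0.57 to 0.53, FDR 0.954) in edgeR. None of the 3 copies was a DET (12.1% of the 46250 transcripts tested were), under an FDR of 0.05 (18.6%) or under an unadjusted 0.05 (33.8%). DESeq2 gave adjusted p-values of 0.367 for Wx-A1, 0.978 for Wx-B1 and 0.938 for Wx-D1.

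Wx-A1 alone was lower in FPKM in every plant at 40 °C than in any at 20 °C, 1 of the 3 copies against 26% of transcripts tested. After TMM scaling the plants of both temperatures overlapped for Wx-A1 as well. The scaling matters for the summed level too. With library totals alone the sum was 2519, 2918 and 3623 CPM (counts scaled to library size) at 40 °C, against 3750, 3285 and 3463 CPM at 20 °C. With the TMM factors it was 2522, 2905 and 4356 CPM at 40 °C, against 3823, 3224 and 3253 CPM at 20 °C. With its factor of 0.832, 40 °C replicate 3 was the highest of the 9 plants, and with library totals alone it was within the range at 20 °C.

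**Figure D2:**
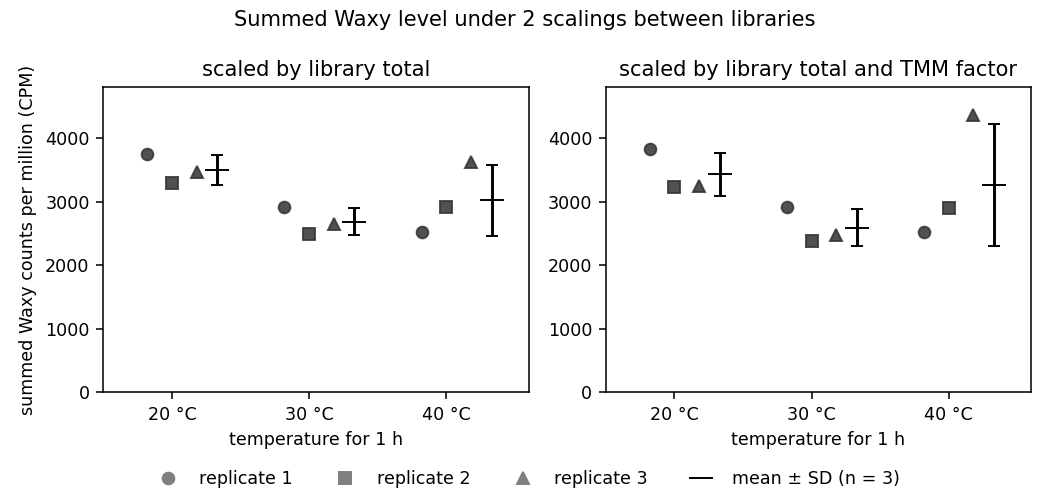
Summed counts of the 3 Waxy copies in CPM (vertical axis, from 0) at 20, 30 and 40 °C, scaled by library total (left) and by library total and TMM factor (right). Each symbol is 1 plant and the bars are the mean ± SD of 3 plants. The triangle at 40 °C, replicate 3, moves to 4356 CPM with the TMM factor, against 3623 CPM without it.

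Without 40 °C replicate 3 the values at 40 °C came down. The edgeR log2 fold change of 40 over 20 °C was then -0.43 for Wx-A1 (FDR 0.0818), -0.27 for Wx-B1 (FDR 0.271), -0.32 for Wx-D1 (FDR 0.176) and -0.32 for the sum (FDR 0.195). The sign of Wx-B1 was also negative without 20 °C replicate 2 (-0.040) and without 20 °C replicate 3 (-0.029), so its direction at 40 °C was not settled. No copy was past the threshold with or without 40 °C replicate 3. Within 40 °C, all 3 copies were highest in replicate 3, next in replicate 2 and lowest in replicate 1 on both scales.

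Between 40 and 30 °C the sum averaged 1473 ± 270.5 FPKM at 40 °C and 1315.5 ± 105 FPKM at 30 °C (SD, n = 3 each). The edgeR log2 fold change of 40 over 30 °C was 0.13 for Wx-A1 (95% interval -0.27 to 0.54, FDR 0.719), 0.37 for Wx-B1 (-0.18 to 0.91, FDR 0.438), 0.41 for Wx-D1 (-0.13 to 0.95, FDR 0.373) and 0.33 for the sum (-0.19 to 0.84, FDR 0.466). For each copy and the sum the FPKM ranges overlapped. None of the 3 copies was a DET (3.56% of the 44638 transcripts tested), under an FDR of 0.05 (5.14%) or under an unadjusted 0.05 (20%). With DESeq2 the adjusted p-values were 0.794 for Wx-A1, 0.418 for Wx-B1 and 0.320 for Wx-D1. Without 40 °C replicate 3 the log2 fold changes were -0.04 for Wx-A1, 0.10 for Wx-B1, 0.14 for Wx-D1 and 0.08 for the sum.

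**Figure D3:**
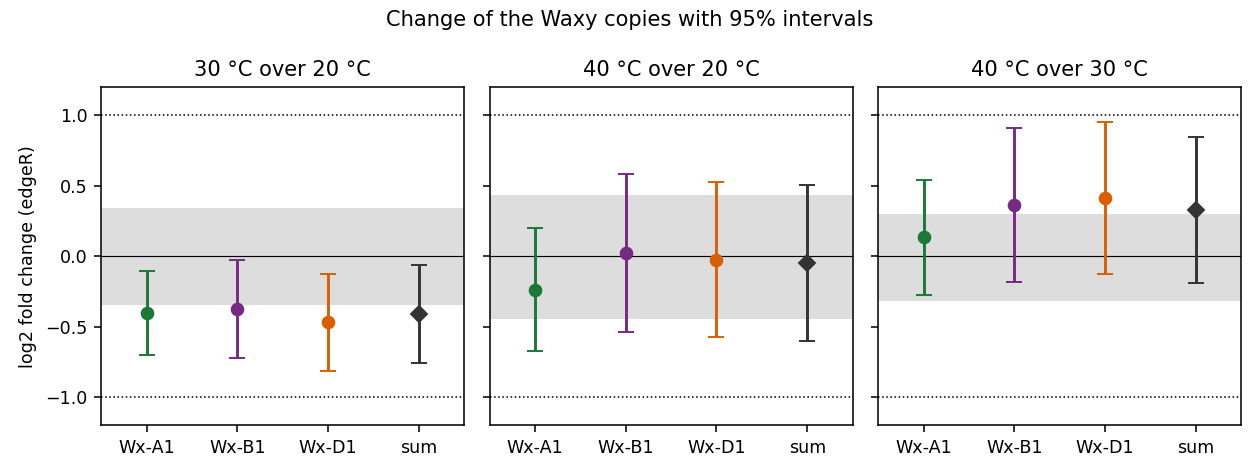
Log2 fold change by edgeR (vertical axis) of each Waxy copy and of their sum for 30 over 20 °C, 40 over 20 °C and 40 over 30 °C. Points are estimates and bars their 95% intervals, the grey band runs between the quartiles of all transcripts tested and the dotted lines mark a fold change of 2. The intervals lie below 0 only for 30 over 20 °C, where the unadjusted p-values were under 0.05 and the FDRs were not.

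A test of all 3 temperatures at once on TPM, added after the data were seen, gave exact permutation p-values of 0.025 for Wx-A1, 0.171 for Wx-B1, 0.104 for Wx-D1 and 0.0976 for the sum. Adjusted over these 4 values by Benjamini-Hochberg, the exact p-values were 0.1, 0.171, 0.138 and 0.138, so none was under 0.05. Without 40 °C replicate 3 the exact permutation p was 0.0143 for Wx-A1, 0.0786 for Wx-B1, 0.0179 for Wx-D1 and 0.0393 for the sum. The adjusted exact p-values were 0.0357, 0.0786, 0.0357 and 0.0524. Wx-A1 and Wx-D1 were then under 0.05, but this test was run on the Waxy copies and their sum only. The share of all transcripts under 0.05 in it is thus not known, and no other plant was left out of it. All p-values here measure the spread between the plants sampled at 1 time in 1 experiment. Each temperature was 1 group of plants, and only the heated groups were moved to preheated incubators. Temperature therefore cannot be told apart from incubator or transfer.

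The shares of the copies in their summed FPKM do not depend on the scaling between libraries. Wx-A1 made up 26.4%, 26.5% and 26.8% of the sum in the plants at 20 °C, 25.2%, 27.3% and 27.8% at 30 °C and 25.1%, 24.2% and 21.9% at 40 °C. At 40 °C all plants were below all plants at the other temperatures. The mean was 23.7 ± 1.68% at 40 °C and 26.5 ± 0.206% at 20 °C (SD, n = 3 each), a difference of -2.81 percentage points, and the difference of 40 from 30 °C was -3.02 points. Both gave an exact two-sided permutation p of 0.1, the smallest that 3 against 3 plants allow, and 0.18 after Benjamini-Hochberg adjustment over the 9 share comparisons.

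Wx-B1 held 43.4%, 43.3% and 43.7% of the sum at 20 °C, 45.5%, 44.5% and 43.6% at 30 °C and 44.2%, 46.2% and 46.8% at 40 °C. The plants at 40 °C were above those at 20 °C without overlap, by 2.25 points in the mean (45.7 ± 1.34% at 40 °C and 43.5 ± 0.237% at 20 °C, exact permutation p = 0.1, adjusted 0.18). The plants at 30 °C overlapped with both other temperatures.

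Wx-D1 held 30.2%, 30.2% and 29.5% at 20 °C, 29.3%, 28.2% and 28.7% at 30 °C and 30.7%, 29.6% and 31.3% at 40 °C. The plants at 30 °C were below those at 20 °C, by 1.25 points in the mean, and those at 40 °C were above those at 30 °C, by 1.81 points (exact permutation p = 0.1 each, adjusted 0.18). The difference of 40 from 20 °C was 0.560 points with overlap (exact permutation p = 0.4, adjusted 0.45). The widest 95% Wilson interval of a copy's share of the summed counts in 1 library spanned 0.969 points (Wx-B1, 40 °C replicate 1). The widest for Wx-D1 spanned 0.891 points, in the same library. Such an interval covers counting error in 1 library only. It does not give the error of a difference between group means, so the 0.560 points cannot be judged by it.

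**Figure D4:**
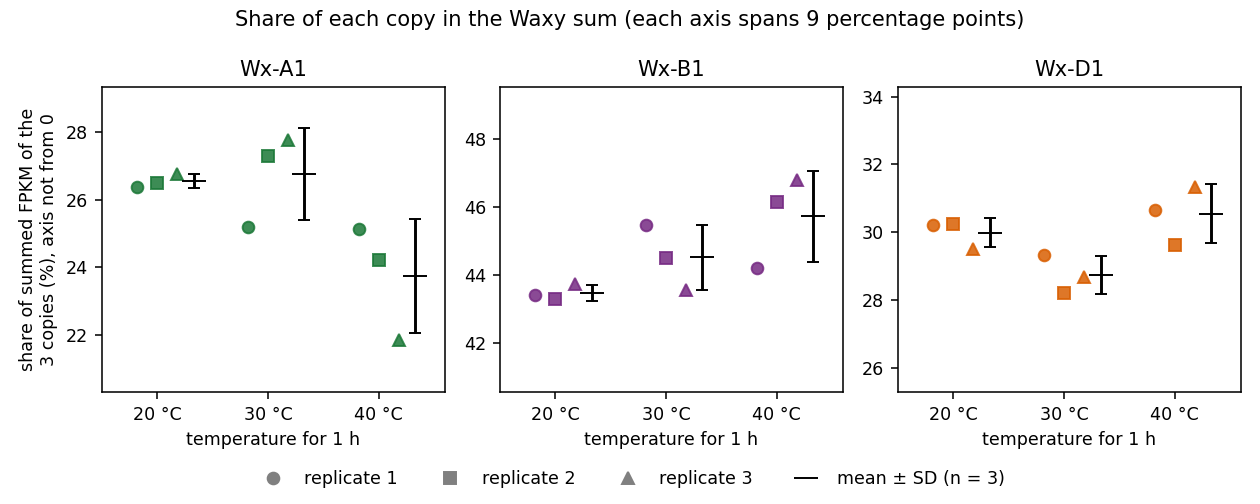
Share of each copy in the summed FPKM of the 3 Waxy copies, in percent (vertical axes, each spanning the same number of points and not starting at 0), at 20, 30 and 40 °C. Each symbol is 1 plant and the bars are the mean ± SD of 3 plants. Wx-A1 lies at 21.9% to 25.1% at 40 °C, against 26.4% to 26.8% at 20 °C, and the shares at 20 °C are the most tightly grouped for each copy.

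Over the 3 temperatures at once, a test added after the data were seen, the exact permutation p was 0.05 for the share of Wx-A1, 0.0607 for Wx-B1 and 0.0286 for Wx-D1. Each was 0.0607 after Benjamini-Hochberg adjustment over the 3 exact tests, and the 3 shares sum to the whole, so they are not independent. Without 40 °C replicate 3, in which Wx-A1 was at 21.9%, the difference of Wx-A1 between 40 and 20 °C was -1.87 points and that of Wx-B1 was 1.71 points, still without overlap, and that of Wx-D1 was 0.160 points. Between 40 and 30 °C the differences were then -2.09 points for Wx-A1, 0.676 for Wx-B1 and 1.41 for Wx-D1. The exact permutation p over the 3 temperatures was 0.125 for Wx-A1, 0.15 for Wx-B1 and 0.0929 for Wx-D1 without that plant (adjusted 0.15 each).

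Ratios within a plant, also added after the data were seen, did not overlap between 40 and 20 °C for the pairs with Wx-A1. They come from the same FPKM values as the shares, and the ratios of a plant are tied to one another. The ratio tests are therefore not separate observations from the share tests. Wx-B1 was 1.76, 1.91 and 2.14 times Wx-A1 in FPKM at 40 °C, against 1.65, 1.63 and 1.63 times at 20 °C. The difference in log2 ratio was 0.24 (exact permutation p = 0.1, adjusted 0.225 over 9 ratio tests). Wx-D1 was 1.22, 1.22 and 1.43 times Wx-A1 at 40 °C, against 1.15, 1.14 and 1.10 times at 20 °C, a difference in log2 ratio of 0.19 (exact permutation p = 0.1, adjusted 0.225). For Wx-B1 over Wx-D1 the plants at 40 and 20 °C overlapped, with a difference in log2 ratio of 0.05 (exact permutation p = 0.2, adjusted 0.3). Of the other 6 comparisons, Wx-D1 over Wx-A1 did not overlap between 40 and 30 °C (difference 0.26) and Wx-B1 over Wx-D1 did not overlap between 30 and 20 °C (difference 0.10), each with an exact permutation p of 0.1 (adjusted 0.225). The other 4 overlapped. Without 40 °C replicate 3 the differences of 40 from 20 °C were 0.16 for Wx-B1 over Wx-A1 and 0.11 for Wx-D1 over Wx-A1, and that of Wx-D1 over Wx-A1 between 40 and 30 °C was 0.19, still without overlap.

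The copies varied together between plants. On FPKM, the plants had the same order for all 3 copies within each temperature, with replicate 1 highest at 20 and 30 °C and replicate 3 highest at 40 °C. On TMM-scaled CPM this held at 30 and 40 °C, and at 20 °C Wx-D1 had replicates 2 and 3 in the other order. FPKM values within a library share its scaling, and the copies share fragments, so the common order is a description.

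The transcripts with the pattern most like the summed Waxy level over the 9 plants were sought among 9286 transcripts outside the Waxy genes with a mean FPKM of at least 10. The measure was the root mean square difference of log2(FPKM + 1) values, each centred on its own mean. The nearest were TraesCS7B02G018600.1 (0.0543), TraesCS7A02G120300.1 (0.0617), TraesCS1A02G327500.1 (0.0749), TraesCS5A02G423100.2 (0.0859) and TraesCS2B02G175300.1 (0.0870), against 0.414 for the median candidate. The same measure from the sum was 0.0388 for Wx-B1, 0.0444 for Wx-D1 and 0.10 for Wx-A1. Thus 11 candidates outside the Waxy genes lay closer to the sum than Wx-A1 did, and 0 lay closer than Wx-B1 or Wx-D1, which are themselves large parts of it. TraesCS7B02G018600.1 averaged 73.9, 57.6 and 59.8 FPKM at 20, 30 and 40 °C, and TraesCS5A02G423100.2, the most abundant of the 5, averaged 171, 120 and 144 FPKM. The files do not pair these IDs with gene names, so they are given as IDs alone.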

How the data were processed

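Grain RNA of 9 plants was sequenced in paired ends. Per the study's methods the authors used Trimmomatic 0.36 for trimming, the IWGSC v1.0 assembly as reference and RSEM 1.3.0 for quantification. The aligner is not given in the sources used here. The deposited tables hold, for each transcript, an expected count (not normalized), TPM and FPKM, both corrected for effective length, which the authors' tables also list. RSEM divided fragments that fit several transcripts among them, so levels of similar copies are not independent.

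The member genes and the tests were chosen with earlier results of these data known. Expected counts were rounded to whole numbers. For each pair of temperatures, the 6 samples entered a quasi-likelihood fit in edgeR 4.0.16 (R 4.3.3, with limma 3.58.1) with TMM factors and without a replicate block. Only transcripts whose FPKM averaged above 1 in either group were kept. All 3 copies passed this filter in every comparison. FDR is Benjamini-Hochberg over all transcripts tested. The SE is the absolute log2 fold change divided by the square root of F. For the sum, the 3 copies were replaced by 1 row of their summed counts. Shares and ratios were tested by exact permutation over plants (Python 3.11.15, scipy 1.17.1). Totals of 15778561 to 19497182 counts place a floor of 3 counts at 0.154 to 0.190 CPM, which like the Wilson intervals covers counting error only.

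The alternatives were the replicate block, 1 fit over 9 samples, DESeq2 1.42.0, its size factors in edgeR, library size alone, no FPKM filter, a mean FPKM above 5, limma-trend on log2 TPM, counts summed over genes, other share and pseudocount scales, and leaving out each plant. The 5 named similar transcripts were those with the smallest distance from the Waxy sum. The fits were tested on simulated data. The starch pathway and cell type lists were not used, because 0 of the gene IDs in the tables were found in the RefSeq gene table (IWGSC CS RefSeq v2.1), and no sequence is shown for the same reason. The extraction text in the labels names a cell type of an animal, and the tissue was taken from the titles and tissue labels (grain).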

Additional observations from a re-analysis of the deposited data

How the results depend on the processing

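At 30 against 20 °C the log2 fold changes of the 3 copies and their sum stayed below 0 under every alternative run, but the call moved. Wx-A1 was past the threshold with DESeq2 (-0.41, adjusted p = 0.0106) and with a mean FPKM above 5 (-0.48, edgeR FDR 0.0481), and Wx-D1 (-0.47, 0.0146) and the sum (-0.41, 0.0270) with DESeq2. With DESeq2, 10.6% of the transcripts with an adjusted p were under 0.05. The share with a mean FPKM above 5 is not given here. Over the alternatives the adjusted p ran from 0.0106 to 0.280 for Wx-A1, 0.0146 to 0.262 for Wx-D1 and 0.0270 to 0.390 for the sum. Leaving out 1 plant gave -0.59 to -0.38 for Wx-D1, -0.46 to -0.32 for Wx-A1, -0.49 to -0.29 for Wx-B1 and -0.51 to -0.32 for the sum. The edgeR FDR of Wx-D1 was 0.0462 without 30 °C replicate 1. In that run the DETs over all transcripts numbered 2757, against 1784 in the main fit. The cause was not tested.

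At 40 against 20 °C the small values of Wx-B1, Wx-D1 and the sum changed sign. Wx-B1 was at -0.019 with a replicate block, -0.0074 in 1 fit over 9 samples, -0.15 with library size alone, -0.056 with a mean FPKM above 5 and -0.14 and -0.15 with limma-trend on log2(TPM + 1) and log2(TPM + 0.1), and Wx-D1 was at 0.0094 without an FPKM filter. Leaving out 1 plant gave -0.27 to 0.17 for Wx-B1, -0.32 to 0.10 for Wx-D1 and -0.32 to 0.080 for the sum. At 40 against 30 °C Wx-A1 was at -0.021 with library size alone and at -0.039 and -0.040 with limma-trend on log2(TPM + 1) and log2(TPM + 0.1), and leaving out 1 plant gave -0.036 to 0.25. The share of Wx-A1 at 30 against 20 °C differed by -0.293 to 0.990 points when 1 plant was left out. No sign change was of a value past the threshold. Library size alone moved the median of all transcripts to -0.14 at 40 against 20 °C and the share of DETs that were higher to 48.9%, against 62.4% with TMM. Relative to that median Wx-A1 was at -0.26, Wx-B1 at -0.01, Wx-D1 at -0.06 and the sum at -0.08.

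The DETs over all transcripts numbered 1784 at 30 against 20 °C (906 to 2757 when 1 plant was left out, 2757 without 30 °C replicate 1) and 5583 at 40 against 20 °C (3075 with a mean FPKM above 5). The stricter FPKM filter leaves fewer transcripts to test, and their number is not given here. The counts of 3075 and 5583 therefore cannot be compared as shares. With a replicate block the edgeR log2 fold change at 30 against 20 °C was -0.40 for Wx-A1 (FDR 0.0723), -0.38 for Wx-B1 (0.0824), -0.47 for Wx-D1 (0.0508) and -0.41 for the sum (0.0696), and the block changed no call of a copy or of the sum in any comparison. Deviations of same-numbered plants correlated at 0.13, 0.05 and 0.02 at 30 against 20 °C and at -0.12 to 0.07 in the other comparisons, so the numbers were not taken to pair the plants. With 3 plants per temperature no exact test of a share can go below 0.1, and the intervals at 40 °C are too wide to show a difference of the size seen at 30 °C. Of the 5 transcripts nearest the Waxy sum, 4 were shared with the list from log2(FPKM + 0.1) and 1 with the list from a minimum mean FPKM of 100, which the other 4 do not reach.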
